A study of Mus musculus with 1 sample.

Results

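The plasmacytoid dendritic genes Siglech, Spib, Tcf4, Cox6a2, Upb1, Ly6d and Cd7 were followed in single bone marrow progenitors, together with their overlap with Dntt, Il7r and Irf8. The genes were picked by symbol, and all 7 were found among the 32285 genes of the matrix. The library held lineage-negative, Kit-positive bone marrow cells of C57BL/6 mice carrying the CD45.2(+) Brd9fl/fl alleles without Cre, the control of a study of Brd9 loss in blood formation. The mice had received 3 doses of pIpC at 20 mg/kg every other day and were sampled 8 weeks later. The sample record also gives 4 weeks before pIpC. The labels call the marrow a graft in CD45.1(+) CD45.2(-) recipients, whereas the methods describe primary mice for the single-cell work, and this was not settled. How many mice were pooled is not given in the sources used here, and the Brd9-deleted library was not analysed here. With 1 library there were no replicates and no tests, so all intervals are 95% intervals that cover counting error only.

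Plasmacytoid dendritic cells are immune cells that sense viral nucleic acids and release type I interferon. They form in the bone marrow, and their identity depends on Tcf4, an E protein that binds E-box DNA elements. Both Flt3-positive lymphoid progenitors and dendritic progenitors with Irf8, a transcription factor of dendritic cells and monocytes, are known to give rise to them. Dntt, the terminal transferase of antigen receptor joining, and Il7r, the interleukin-7 receptor chain, mark the lymphoid side.

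Because Tcf4 acts through E-boxes, the 250 bases before the RefSeq start are shown for the 3 genes of the 7 that the promoter table held (RefSeq, build GRCm38.p6). The letters run 5′ to 3′ on the gene's own strand, and capitals mark CAGGTG or its reverse complement CACCTG, an E-box form preferred by E proteins, and GAGGAA or its reverse complement TTCCTC, a core of Ets factor sites such as those of Spib.
Siglech, chr7:55767934-55768183, plus strand: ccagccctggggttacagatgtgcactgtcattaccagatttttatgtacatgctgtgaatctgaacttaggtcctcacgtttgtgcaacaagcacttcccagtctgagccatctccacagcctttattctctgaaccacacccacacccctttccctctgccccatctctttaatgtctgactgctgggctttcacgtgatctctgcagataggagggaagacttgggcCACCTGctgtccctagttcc
Spib, chr7:44532072-44532321, minus strand: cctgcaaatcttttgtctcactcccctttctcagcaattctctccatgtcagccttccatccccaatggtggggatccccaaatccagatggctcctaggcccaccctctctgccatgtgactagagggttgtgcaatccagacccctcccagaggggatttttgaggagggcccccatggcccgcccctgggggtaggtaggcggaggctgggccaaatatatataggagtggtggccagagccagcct
Upb1, chr10:75406661-75406910, plus strand: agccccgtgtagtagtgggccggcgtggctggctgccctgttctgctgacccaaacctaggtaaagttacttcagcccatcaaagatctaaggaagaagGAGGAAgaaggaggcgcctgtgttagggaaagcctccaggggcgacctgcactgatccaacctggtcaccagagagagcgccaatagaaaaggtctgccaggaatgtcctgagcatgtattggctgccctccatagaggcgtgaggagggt
Siglech, a sialic acid-binding surface lectin, had 1 CACCTG, which began 20 bases before its start. Upb1, the enzyme of the last step of pyrimidine breakdown, had 1 GAGGAA, beginning 151 bases before its start, and the window of Spib, an Ets factor of B and plasmacytoid dendritic cells, held neither motif. Of 32851 windows of this length in the table, 17.2% held CAGGTG on either strand and 23.3% held GAGGAA. The general E-box CANNTG, which includes CAGGTG, was found 3 times before Siglech, 2 times before Spib and 0 times before Upb1, and in 66.2% of all windows. These are matches of letters only. The RefSeq start of Upb1 lies inside the longer Upb1 gene of the annotation of the same build (chromosome 10, 75401115 to 75441679). Cox6a2, Ly6d, Cd7 and Tcf4 are named only.

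The deposited matrix held 8817 cell barcodes, of which 7645 passed the study's limits on UMIs (counted molecules), genes and mitochondrial share. The kept cells had a median of 18696 UMIs, from 1592 to 49991, and 151852381 UMIs in all. Scrublet called 268 of them doublets (3.51%), and these were kept and counted. Erythroid-like cells, which should lack most of the 7 genes, served as the background. There were 1130 of them with a median of 33453.5 UMIs, so they were read more deeply than the average cell.

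Of the 7 genes, 6 were rare and Tcf4 was not. Siglech had a UMI in 139 cells (1.82%, interval 1.53 to 2.14) and 384 UMIs in all, against 1 of 1130 erythroid-like cells (0.0885%). Spib was the rarest, with 69 UMIs in 53 cells (0.693%, interval 0.520 to 0.906) and none in erythroid-like cells, where a count of 0 allows a share of up to 0.265% (3 counts of the total). Both were therefore above the erythroid level although the erythroid-like cells were deeper. Cd7, a surface protein of the immunoglobulin family known from T and NK cells, was found in 210 cells (2.75%), and Ly6d, a lipid-anchored surface protein of lymphoid progenitors, in 192 (2.51%). Cox6a2, a subunit of cytochrome c oxidase best known from muscle, was found in 367 cells (4.80%), and Upb1 in 461 (6.03%). These 4 had a UMI in 1, 5, 8 and 3 erythroid-like cells respectively. With every cell thinned to 5000 UMIs, which 7546 cells allowed, the shares were 0.981% for Siglech, 0.305% for Spib, 1.63% for Cd7, 1.75% for Ly6d, 2.17% for Cox6a2 and 3.11% for Upb1.

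Tcf4 (chromosome 18, 69343356 to 69689079, plus strand) was detected in 5090 cells (66.6%), but also in 783 of 1130 erythroid-like cells (69.3%). At 5000 UMIs per cell the shares were 32.8% of all cells and 18.9% of erythroid-like cells. A single Tcf4 UMI therefore did not set a cell apart, and its level in counts-per-million of all UMIs (CPM) is used for it below. The depth per positive cell also differed among the genes. Ly6d-positive cells had a median of 4 Ly6d UMIs and up to 103, whereas Spib-positive cells had a median of 1 and at most 3. Siglech and Cd7 had a median of 2 UMIs per positive cell and maxima of 15 and 17. Doublet calls made up 5.76% of Siglech-positive, 6.81% of Cox6a2-positive, 7.59% of Upb1-positive, 8.10% of Cd7-positive and 8.85% of Ly6d-positive cells, each above the 3.51% of all kept cells, and the part of doublets in the overlaps below was not tested. Tcf4 shares a stretch of its own strand with Gm24845, and Irf8 with Gm20388, so a read that falls in both annotations of a pair makes the count of either uncertain.

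The cells were clustered without the 7 genes and without Dntt, Il7r and Irf8, although genes that vary with them stayed in. Of 17 clusters, 1 of 484 cells held most of the plasmacytoid genes. Its leading genes were Gm34680, Runx2 and Flt3. By the marker lists it was multipotent or lymphoid-primed-like, as was the cluster led by Tespa1 and Adgrl4, so it is called the Gm34680 and Runx2 cluster. Siglech was at 38.8 CPM there (interval 34.8 to 43.2), and 112 of the 139 Siglech-positive cells (80.6%) belonged to it. The next level in a cluster with more than 1 Siglech-positive cell, that of conventional dendritic-like cells, was 3.06 CPM (1.47 to 5.63) in 9 of 260 cells. Spib was at 4.95 CPM (3.58 to 6.67) in the Gm34680 and Runx2 cluster and at 3.98 CPM (2.12 to 6.81) in the conventional dendritic-like cells, and these intervals overlap. Siglech was thus concentrated in 1 cluster, while Spib was shared with the dendritic-like cells.

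**Figure D1:**
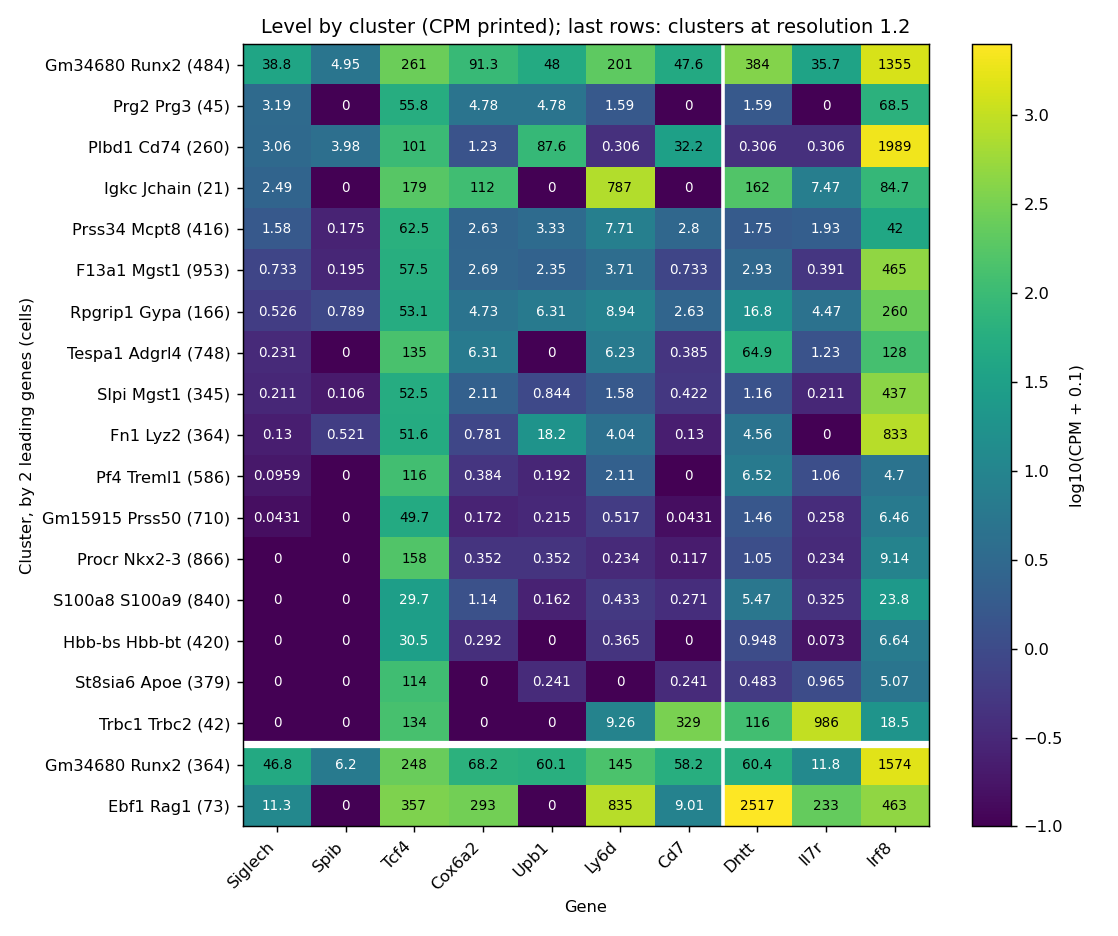
Level of each of the 7 genes and of Dntt, Il7r and Irf8, in counts-per-million UMIs (printed, with colour on a log10 scale), in the 17 clusters and in 2 clusters of a finer clustering (resolution 1.2). The Gm34680 and Runx2 cluster carries Siglech at 38.8 CPM, the conventional dendritic-like cells carry Upb1 at 87.6 CPM, and the finer cluster led by Ebf1 and Rag1 carries Dntt at 2517 CPM with 0 UMIs of Spib and Upb1.

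The other genes were less confined. Upb1 was higher in conventional dendritic-like cells, at 87.6 CPM (77.7 to 98.4) in 135 of 260 cells, than in the Gm34680 and Runx2 cluster, at 48.0 CPM (43.5 to 52.8) in 155 cells. Monocyte-like cells led by Fn1 and Lyz2 still had 18.2 CPM of Upb1 (15.3 to 21.5), in 94 of 364 cells. Cd7 was at 47.6 CPM (43.2 to 52.5) in the Gm34680 and Runx2 cluster and 32.2 CPM (26.3 to 38.9) in conventional dendritic-like cells. The highest Cd7 level, 329 CPM (257 to 415), was in 42 T, NK or innate lymphoid-like cells of a median of only 3398.5 UMIs, in 11 of which it was seen. Upb1 and Cd7 thus extended into dendritic-like cells, and Cd7 also into T, NK or innate lymphoid-like cells.

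Cox6a2 and Ly6d extended elsewhere. Cox6a2 was at 91.3 CPM (85.0 to 97.8) in 185 cells of the Gm34680 and Runx2 cluster, and Ly6d at 201 CPM (192 to 210) in 118 cells. Both were also high in 21 cells led by immunoglobulin genes and Jchain, with Ly6d at 787 CPM in 20 of them and Cox6a2 at 112 CPM in 4, where 1 cell gave 55.6% of the Cox6a2 UMIs. In multipotent or lymphoid-primed-like cells led by Tespa1 and Adgrl4, Cox6a2 was at 6.31 CPM (5.02 to 7.83) in 60 of 748 cells, and Upb1 had 0 UMIs. Tcf4 was detected in every cluster, from 29.7 CPM in neutrophil-like cells to 261 CPM (250.2 to 272) in the Gm34680 and Runx2 cluster, and HSC-like cells had 158 CPM (150.0 to 167). It was therefore graded over the 17 clusters, with its highest level where Siglech was.

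Co-detection was first counted as the number of the 7 genes with a UMI in a cell. None was found in 2358 cells, 1 in 4533 (Tcf4 in 4362 of these), 2 in 490, 3 in 149, 4 in 52, 5 in 39, 6 in 19 and all 7 in 5. Thus 264 cells (3.45%, interval 3.06 to 3.89) had 3 or more, and 129 (1.71%) did when thinned. These 264 cells had a median of 15746.5 UMIs, against 17311 in cells with none, so they were not the deeper cells. Doublet calls were 17 of the 264 (6.44%), and 2 of the 5 cells with all 7 genes. The Gm34680 and Runx2 cluster held 188 of the 264 (71.2%), which was 38.8% of its cells. Conventional dendritic-like cells held 36 (13.8% of that cluster), and HSC-like cells and erythroid-like cells held none.

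**Figure D2:**
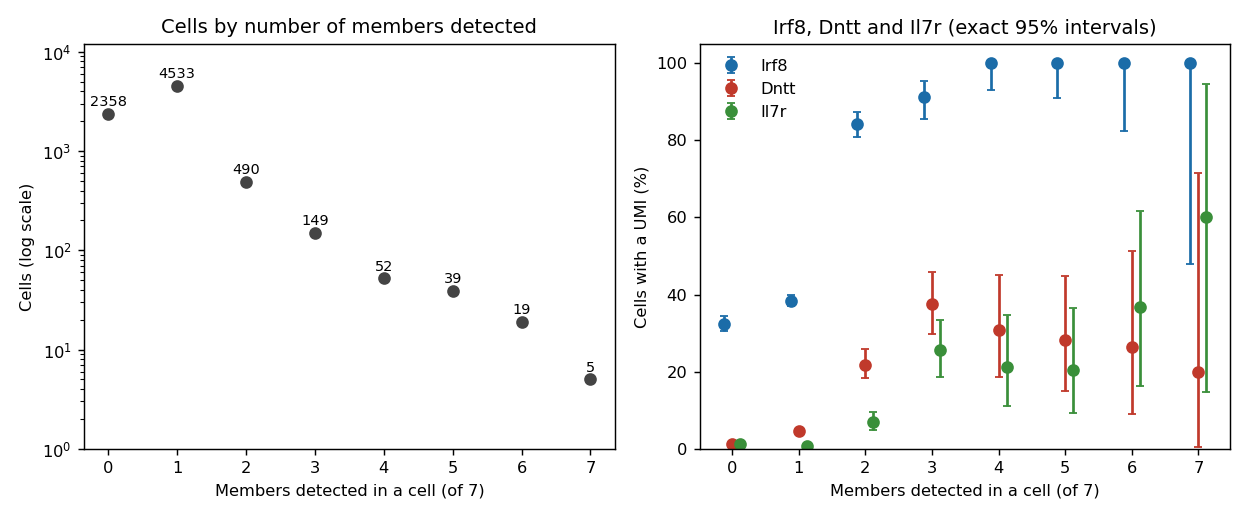
Number of cells (left, log axis) and percent of those cells with a UMI of Irf8, Dntt or Il7r (right, points with 95% Clopper-Pearson intervals as bars) by how many of the 7 genes were detected in a cell. Irf8 goes from 32.5% of cells with none to 100% of cells with 4 or more. Dntt is highest in cells with 3, at 37.6%, with an interval that overlaps that of cells with 4.

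Irf8 followed the number of genes most closely. It had a UMI in 32.5% of cells with none of the 7 genes, 38.4% with 1, 84.3% with 2, 91.3% with 3 and in every cell with 4 or more. Its level went from 185 CPM in cells with none to 1561 CPM in cells with 3 or more. Dntt was in 1.27% of cells with none, 21.8% with 2 and 37.6% with 3, and then in 30.8%, 28.2%, 26.3% and 20.0% of cells with 4, 5, 6 and 7. Il7r was in 1.36% of cells with none, 25.5% with 3, 21.2% with 4, 20.5% with 5, 36.8% with 6 and 60% of the 5 cells with 7. Dntt was thus most frequent at 3 genes, but its interval there (29.8 to 45.9) overlaps that of cells with 4 (18.7 to 45.1). The cells with 5 or more number only 63 and their intervals are wide.

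Tcf4 was higher in cells with more of the other 6 genes, though not at every step. It was at 69.5 CPM in the 6720 cells with none of the 6, 111 CPM with 1, 220 CPM with 2, 356 CPM with 3, 370 CPM with 4, 838 CPM in the 19 cells with 5 and 629 CPM in the 5 cells with all 6. The share of cells with a Tcf4 UMI went from 64.9% with none of the 6 to 73.4% with 1, 88.2% with 2, 88.1% with 3, and to all 63 cells with 4 or more. Among combinations of the 6, the most frequent were Upb1 alone (279 cells), Cox6a2 alone (225) and Ly6d alone (64), followed by Upb1 with Cd7 (56), Cd7 alone (51) and Cox6a2 with Ly6d (49). Siglech, Upb1 and Cd7 together without the others were seen in 18 cells.

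**Figure D3:**
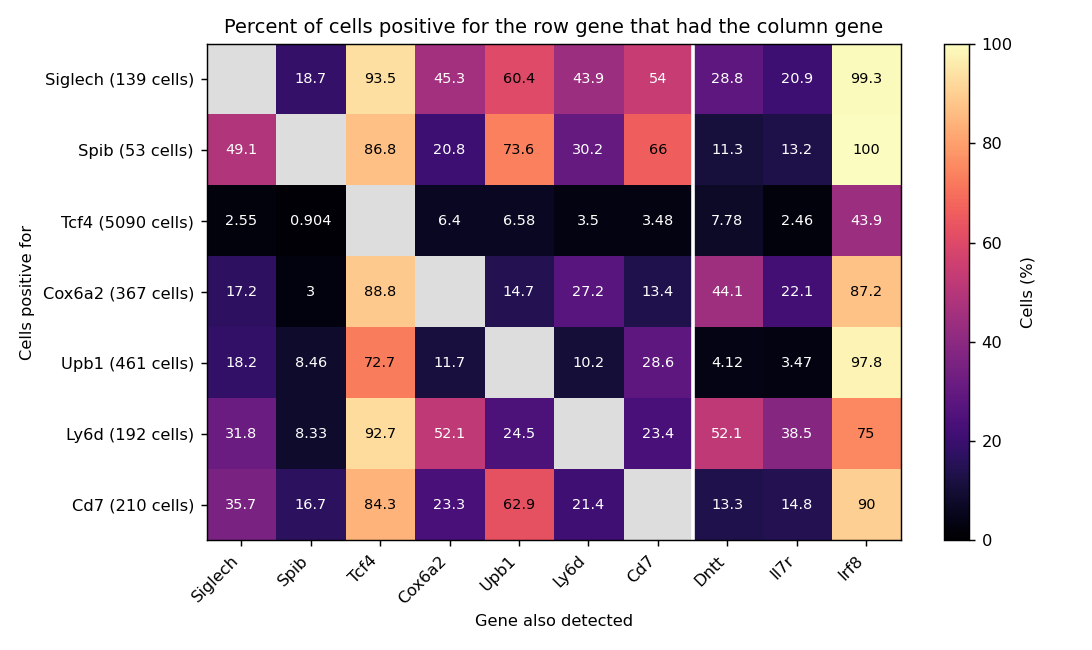
Percent of cells positive for the gene of each line that also had a UMI of the gene of each column, for the 7 genes with Dntt, Il7r and Irf8. Siglech-positive cells have Upb1 in 60.4% and Cd7 in 54.0%, while Cox6a2- and Ly6d-positive cells have Dntt in 44.1% and 52.1%.

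Upb1, Cd7 and Spib formed 1 set of partners and Cox6a2 and Ly6d another, with Siglech tied to both and overlap between the sets. Cd7 was found in 54.0% of Siglech-positive cells (45.3 to 62.4) and 1.80% of Siglech-negative cells, and Upb1 in 60.4% (51.8 to 68.6) against 5.02%. Cox6a2 was found in 45.3% of Siglech-positive cells (36.9 to 54.0) against 4.05%, and Ly6d in 43.9% (35.5 to 52.6) against 1.75%. Siglech-positive cells thus had each of these 4 genes more often than the remaining cells, and at 5000 UMIs per cell the 4 shares were still 52.7%, 50%, 35.1% and 43.2%. Of 53 Spib-positive cells 73.6% had Upb1 (59.7 to 84.7), 66.0% had Cd7 (51.7 to 78.5) and 49.1% had Siglech (35.1 to 63.2). Cox6a2 was in 20.8% of the Spib-positive cells (10.8 to 34.1) against 4.69% of Spib-negative cells. Ly6d was in 30.2% (18.3 to 44.3) against 2.32%, and thinned in 39.1% against 1.63%, so Spib was also tied to Ly6d. Upb1 and Cd7 were also tied to each other, with Upb1 in 62.9% of Cd7-positive cells. Cox6a2 and Ly6d formed the other set, with Cox6a2 in 52.1% of Ly6d-positive cells and Ly6d in 27.2% of Cox6a2-positive cells against 1.26% of Cox6a2-negative cells.

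As a symmetric measure, the cells with both genes over the cells with either (Jaccard index) was highest for Siglech with Cd7 at 27.4%, then Upb1 with Cd7 at 24.5%, Siglech with Ly6d at 22.6% and Cox6a2 with Ly6d at 21.8%. Across the 2 sets it was 12.6% for Ly6d with Cd7, 9.28% for Cox6a2 with Cd7 and 7.76% for Upb1 with Ly6d. It was 6.99% for Spib with Ly6d, 6.98% for Cox6a2 with Upb1 and 2.69% for Spib with Cox6a2. Within the first set, Spib with Upb1 was at 8.21% and Spib with Cd7 at 15.4%, so some pairs across the sets passed a pair within. Tcf4, being frequent, was in 93.5% of Siglech-positive cells (88.1 to 97.0) against 66.1% of Siglech-negative cells, and thinned in 79.7% against 32.3%. All cells come from 1 library, so these overlaps describe that library only.

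The overlap with Dntt and Il7r differed among the genes. Dntt was found in 52.1% of Ly6d-positive cells (44.8 to 59.3) and 44.1% of Cox6a2-positive cells (39.0 to 49.4), against 4.55% and 3.81% of the cells negative for each. It was found in 28.8% of Siglech-positive cells (21.4 to 37.1) against 5.32%, and thinned in 18.9% against 3.59%. Cd7-positive cells had Dntt in 13.3% (9.05 to 18.7) against 5.53% and Spib-positive cells in 11.3% (4.27 to 23.0) against 5.70%, the latter an interval that includes the value of the negative cells. Upb1 stood at the other end, with Dntt in 4.12% of its positive cells (2.50 to 6.36) and 5.85% of its negative cells. The intervals of Ly6d and Cox6a2 overlapped each other, as did those of Spib with both Siglech and Cd7. Where a gene needed 2 or more UMIs, Cd7-positive cells had Dntt in 3.33% (0.916 to 8.31) against 3.60% of negative cells, so their higher Dntt share was lost. When thinned, the shares were 8.13% for Cd7 and 17.4% for Spib, the reverse of their order with all UMIs. Il7r was in 38.5% of Ly6d-positive cells (31.6 to 45.8), 22.1% of Cox6a2-positive (17.9 to 26.7), 20.9% of Siglech-positive (14.4 to 28.6), 14.8% of Cd7-positive (10.3 to 20.3), 13.2% of Spib-positive (5.48 to 25.3) and 3.47% of Upb1-positive cells (2.0 to 5.58). The cells negative for these genes had Il7r in 1.25%, 1.18%, 1.84%, 1.83%, 2.11% and 2.10% respectively. For Upb1 the interval of the positive cells includes the share of the negative cells, with Il7r as with Dntt. For Tcf4 the shares were 7.78% with Dntt and 2.46% with Il7r.

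**Figure D4:**
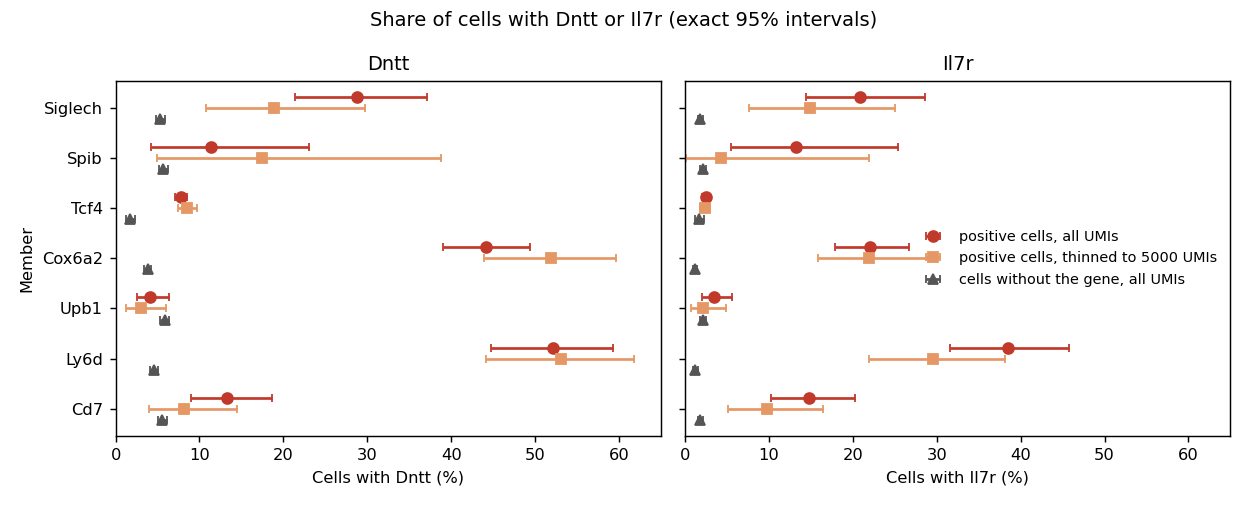
Percent of the cells positive for each of the 7 genes that had a UMI of Dntt (left) or of Il7r (right), with all UMIs (circles) and thinned to 5000 UMIs (squares), beside the cells negative for that gene (triangles), with 95% Clopper-Pearson intervals as bars. Ly6d is highest for Dntt (52.1%) and Il7r (38.5%). For Upb1 the intervals of positive cells (4.12% with Dntt, 3.47% with Il7r) include the shares of negative cells (5.85% and 2.10%).

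Irf8 gave another order. It was found in 53 of 53 Spib-positive cells, 138 of 139 Siglech-positive cells (99.3%, 96.1 to 100) and 451 of 461 Upb1-positive cells (97.8%, 96.1 to 99.0). It was in 90% of Cd7-positive (85.1 to 93.7), 87.2% of Cox6a2-positive (83.3 to 90.4) and 75.0% of Ly6d-positive cells (68.3 to 81.0), against 41.5% of all kept cells and 9.56% of erythroid-like cells. Its level in the positive cells was 1831 CPM for Siglech, 1835 for Spib, 1591 for Cd7, 1415 for Upb1, 962 for Ly6d, 729 for Cox6a2 and 294 for Tcf4. The genes with the lowest Irf8 levels, leaving out Tcf4, were thus those with the highest Dntt shares. Dntt without Irf8 was seen in 20 Ly6d-positive cells (10.4%), 21 Cox6a2-positive cells (5.72%) and 0 Upb1-positive cells, which allows a share of up to 0.651%.

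In the joint states, 18 of the 139 Siglech-positive cells had both Dntt and Il7r, 22 had Dntt only, 11 had Il7r only and 88 had neither. All 51 Siglech-positive cells with Dntt or Il7r also had Irf8. Ly6d-positive cells had both Dntt and Il7r in 65 of 192 (33.9%), and Cox6a2-positive cells in 70 of 367 (19.1%). Only 29 of 461 Upb1-positive cells (6.29%) had either. Between themselves Dntt and Il7r shared 93 cells, which was 21.2% of Dntt-positive and 55.7% of Il7r-positive cells.

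Inside the Gm34680 and Runx2 cluster, the Dntt shares again differed by gene. Dntt was found in 63.2% of its Cox6a2-positive and 18.7% of its Cox6a2-negative cells, and in 64.4% of its Ly6d-positive and 26.5% of its Ly6d-negative cells. For Upb1 the order was turned, with Dntt in 9.03% of Upb1-positive (5.03 to 14.7) and 48.3% of Upb1-negative cells, at median depths of 16573 and 17986 UMIs. For Cd7 the shares were 18.8% and 40.9%, and for Spib 16.7% (5.64 to 34.7) and 37.0% (32.6 to 41.6). For Siglech they were 31.2% (22.8 to 40.7) and 37.1% (32.2 to 42.2). Il7r was in 37.8% and 5.35% of cells with and without Cox6a2, 53.4% and 6.28% for Ly6d, and 9.68% and 21.6% for Upb1. It was in 24.1% (16.5 to 33.1) and 15.9% (12.3 to 20.0) for Siglech, 17.0% and 18.0% for Cd7 and 20% and 17.6% for Spib. Cox6a2, Ly6d and Upb1 thus differed in the same direction with both genes, beyond the intervals. For Siglech, Cd7 and Spib the Il7r intervals of positive and negative cells overlapped, as did the Dntt intervals for Siglech and Spib. A finer clustering (resolution 1.2) divided this cluster, with 360 of its cells in a cluster of 364 led again by Gm34680 and Runx2, and 71 in a cluster of 73 led by Ebf1 and Rag1, B-lineage and receptor-recombination genes. The cluster of 364 scored highest on the monocyte list and met no name, so the multipotent or lymphoid-primed label did not carry over to it.

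In the 73 cells Dntt was at 2517 CPM in 72 of them and Il7r at 233 CPM in 47, while in the 364 cells they were at 60.4 CPM and 11.8 CPM. Ly6d was 5.77-fold and Cox6a2 4.30-fold higher in the 73 cells (835 against 145 CPM, and 293 against 68.2 CPM), and Tcf4 1.44-fold higher (357 against 248 CPM). Siglech was at 11.3 CPM in 9 of the 73 cells and 46.8 CPM in 102 of the 364, a ratio of 0.241 (0.114 to 0.448). Cd7 was at 9.01 against 58.2 CPM, a ratio of 0.155, and Irf8 at 463 against 1574 CPM. Upb1 and Spib had 0 UMIs in the 73 cells, so with a floor of 3 UMIs over the group Upb1 was at least 17.8-fold and Spib at least 1.83-fold lower there, and the 95% intervals of their ratios reached up to 0.0695 and 0.700. These clusters were made from genes that vary with Dntt, and the folds describe them without a test. Outside this cluster, Cox6a2 and Dntt met again in the multipotent or lymphoid-primed-like cells led by Tespa1 and Adgrl4, where Cox6a2 was in 18.1% of 155 Dntt-positive cells and 5.40% of Dntt-negative cells at median depths of 16195 and 16110 UMIs.

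The Siglech-positive cells were then described by whether they had Dntt or Il7r (51 cells) or neither (88 cells), with median depths of 15908 and 15748 UMIs and 4 doublet calls in each. Cox6a2 was at 343 CPM in the former and 44.6 CPM in the latter, a ratio of 7.69 (5.90 to 10.2), and was found in 39 of 51 against 24 of 88 cells. Ly6d was at 1021 and 114 CPM, a ratio of 8.97, in 33 of 51 and 28 of 88 cells, and 1 cell gave 103 of the 889 Ly6d UMIs of the former. Upb1 went the other way, at 62.0 and 155 CPM, a ratio of 0.399. Tcf4 and Siglech itself had ratios of 1.46 and 1.53, Cd7 0.682, Irf8 0.848 and Spib 0.994. Cox6a2 and Ly6d already overlapped with Dntt and Il7r over the whole library, so their direction in this split is no separate result.

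Of 5761 genes with enough UMIs, 10.1% were higher and 9.48% lower in the Siglech-positive cells with Dntt or Il7r beyond the counting interval of the ratio. Of 7 lymphoid progenitor and B-lineage genes with at least 10 UMIs, 5 were higher: Blnk, a B-cell adaptor (ratio 4.78), Satb1 (2.67), Notch1 (2.20), Cd27 (2.09) and Flt3 (1.82), and Vpreb1 and Cd79b were not told apart. All 7 monocyte markers were lower, among them Ccr2 (0.0676), F13a1 (0.131) and Klf4 (0.319), with a summed level of 744 against 1771 CPM. Of 8 conventional dendritic markers 7 were lower, although 1 cell gave 152 of the 655 Cd74 UMIs of the cells with neither. None of 7 plasmacytoid markers outside the 7 genes was told apart, with summed levels of 1220 and 1196 CPM. Of 7 genes of the separate plasmacytoid surface and effector list, 1 was lower and 0 higher, with summed levels of 1035 and 1455 CPM. That gene was Ly6c2, with a ratio of 0.198 (0.159 to 0.244). Summed markers of eosinophils (796 against 22.0 CPM) and of basophils or mast cells (913 against 353 CPM) were also higher in the cells with Dntt or Il7r, where 1 cell gave 386 of the 674 Prg2 UMIs and another 409 of the 413 Prss34 UMIs, and the part of other cell types in the split was not tested. The lymphoid list and the monocyte list thus lay on opposite sides of this split. The split itself was drawn up after the overlap values were seen.

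**Figure D5:**
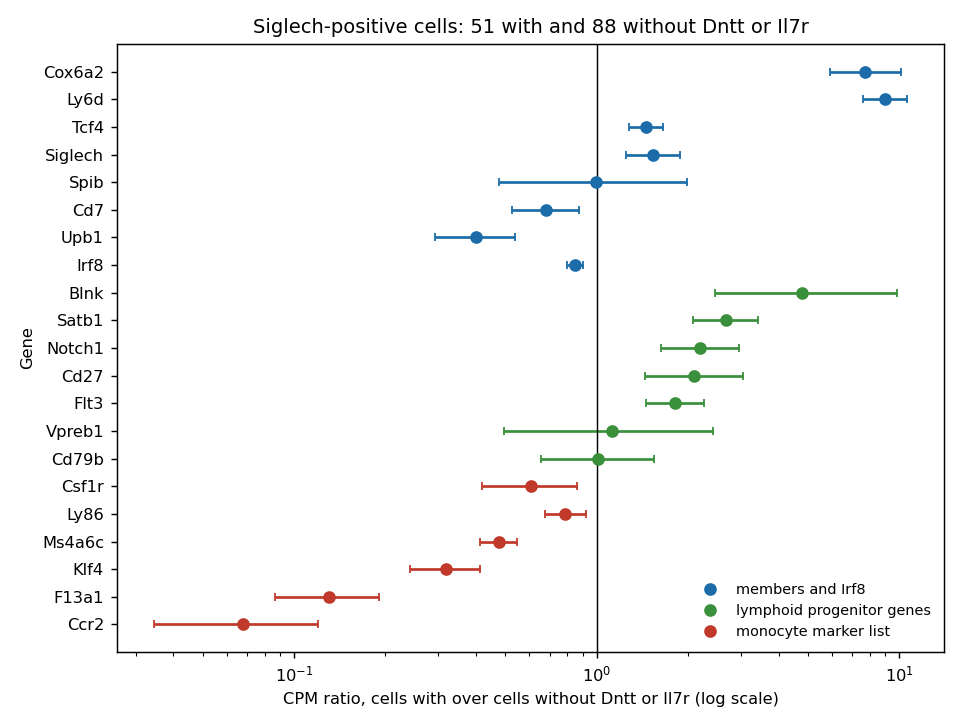
Ratio of levels (counts-per-million UMIs, log axis) in the 51 Siglech-positive cells with Dntt or Il7r over the 88 with neither, for the 7 genes and Irf8, the lymphoid progenitor list and the monocyte list (points, with 95% conditional binomial intervals as bars and a line at equal levels). Cox6a2 (7.69) and Ly6d (8.97) lie farthest to the right and Ccr2 (0.0676) farthest to the left, and Fn1, with 0 against 20 UMIs, cannot be drawn.

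The cells with 3 or more of the 7 genes were compared with the 2358 cells with none, gene by gene, to see what else they carried. By selection the cells with none lacked Tcf4, which was in 43.3% of neutrophil-like and 43.5% of basophil or mast-like cells against 66.6% of all cells. The part of this selection in the lists below was not tested. Of 11758 genes with 50 or more UMIs, 1136 were at least 2-fold higher (9.66%) and 1180 at least 2-fold lower (10%), and the median ratio was 1.03. Of 6 plasmacytoid surface and effector genes that could be tested, 3 were higher and 0 lower with a median ratio of 1.72. Cd300c, a surface receptor of the CD300 family, had a ratio of 114 (71.9 to 189), Bst2, the interferon-inducible tetherin, 5.41 and Ccr9, a chemokine receptor, 2.07. With 20 UMIs in the cells with none, Cd300c passed the minimum of 50 UMIs only through the 264 cells. Ly6c2 (0.73), Smim5 (1.14) and Lair1 (1.37) had the lowest ratios. Klk1, Klk1b27, Ptcra and Pacsin1 had too few UMIs to be compared, with 0 UMIs of Klk1b27, 4 of Klk1, 2 of Ptcra and 23 of Pacsin1 in the 264 cells. Some of the other known plasmacytoid markers thus went with the 7 genes, while Klk1b27, Klk1 and Ptcra were at or near 0 in the same cells.

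Of 5 nucleic acid sensing genes 3 were higher and 0 lower (median ratio 2.21), namely Unc93b1, which escorts endosomal Toll-like receptors (3.48), Slc15a4, a lysosomal transporter (2.43), and Irf7, a factor of interferon production (2.21), while Myd88 (1.22) and Irak4 (0.94) were lowest. Tlr7 had 15 UMIs and Tlr9 4, too few to be compared. Of 8 dendritic cell factors 4 were higher and 0 lower (median 2.0): Runx2 at 16.0, Batf3 at 5.50 and Bcl11a at 2.51 were highest, and Zbtb46 (1.37), Zeb2 (1.43) and Spi1 (1.71) lowest. Runx2 also led the cluster that held most of these cells. Of 5 E proteins, inhibitors and cofactors, 2 were higher and 1 lower (median 1.42). Id2, an inhibitor of E proteins, had a ratio of 4.42 and Cbfa2t3, a Tcf4 cofactor, 2.12, whereas Tcf12 was at 1.42, Tcf3 at 0.96 and Id1 at 0.48.

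The lymphoid progenitor and B-lineage list stood highest, with 10 of 11 genes at least 2-fold higher, 0 lower and a median ratio of 19.4. The 264 cells were chosen in part by Ly6d (125 cells) and Cox6a2 (140 cells), which overlap with Dntt and Il7r. The height of this list is therefore no separate result. Ebf1 (125), Vpreb3 (100.5) and Rag1 (84.8) had the highest ratios, and Cd79b (1.61), Cd27 (2.20) and Notch1 (5.28) the lowest. A minority of the 264 cells carried the highest ratios, with Ebf1 detected in 6.44%, Vpreb3 in 5.68% and Rag1 in 8.33% of them, over 7, 5 and 9 UMIs in the cells with none. Flt3, the receptor of early lymphoid and dendritic progenitors, was in 80.7% of the 264 cells and 8.48% of cells with none, and Kit, the gene of the sort, in 34.8% and 58.7%. Among the marker lists of other cell types, 6 of 7 monocyte genes were higher and 0 lower, with summed levels of 1524 against 544 CPM. Of 9 conventional dendritic genes 3 were higher and 1 lower, with 896 against 508 CPM. All 7 neutrophil, 7 erythroid and 6 basophil or mast markers were lower, and 3 of 4 T, NK or innate lymphoid markers were lower and 1 higher. Of 7 HSC markers 4 were lower and 1 higher, and of 7 megakaryocyte markers 6 were lower and 1 higher. The part of monocytes and conventional dendritic cells in the result was not tested.

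Genes with the detection pattern most like each of the 7 were ranked by the Jaccard index over the 7645 cells, among 13372 genes seen in at least 50 cells. For Siglech these were Cd300c (27.1%), Itgax, the integrin CD11c (23.6%), Klrd1 (22.8%), Lifr (20.7%) and Gm34680 (20.1%). Spib was most like Ptprf (10.1%), followed by Cd300c, Lifr, Epha2 and Klrd1. Cd7 was most like Gm34680 (25.7%), then Klrd1, Cd300c, Itgax and L1cam, and Upb1 was most like March1 (32.4%), then Pid1, Rnd3, Gm34680 and L1cam. For Cox6a2 they were Dntt (25.2%), Arpp21 (19.4%), Il7r (17.9%), Cmah and Flt3, and for Ly6d Il7r (26.0%), Cmah (25.9%), Blnk (25.0%), Arpp21 and Mzb1. Dntt and Il7r were thus among the 5 nearest for Cox6a2, and Il7r for Ly6d, and neither was for Siglech, Spib, Upb1 or Cd7. Tcf4 was most like widely detected genes such as Serinc3 (67.0%), Eif3f, Ddx5, mt-Nd2 and B2m.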

How the data were processed

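Single-cell RNA-seq was measured in 1 library (10x Genomics 3′ v3.1 per the methods, although the labels describe a bulk RNA kit). The deposited matrix holds whole UMI counts per gene and cell barcode, which the authors made with Cell Ranger 6.0.2 against mm10. No deposited column was left unread (0 columns not used).

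Following the study, cells were kept between 1000 and 50000 UMIs and between 1000 and 6500 genes, with less than 7% mitochondrial UMIs (7645 of 8817). Scrublet in scanpy 1.11.5 called 268 doublets at a rate of 6%, which were kept. Seurat 5.3.0 with sctransform 0.4.2 (R 4.3.3) used 3000 variable genes, 50 components, resolution 0.8 and seed 1, with the 7 genes, Dntt, Il7r and Irf8 left out. Clusters were called "-like" where at least 3 markers of a list were 1.5-fold or more above the other cells, the mean log2 ratio was 0.5 or more, no other list had as many markers among the 10 leading genes and at most 20% of cells were doublet calls. Cells of at least 5000 UMIs were thinned to 5000 (7546 cells, 99 too shallow). Intervals at the 95% level are Clopper-Pearson for shares, exact Poisson for CPM and conditional binomial for ratios (scipy 1.17.1). A share at 0 is given with the limit that 3 counts of the total set. UMIs were counted without replicates, so no test was made. Ratios between groups needed 50 UMIs over both groups, and those within Siglech-positive cells 10.

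The genes and lists were chosen with earlier results of these data known. Named besides the 7 and Dntt, Il7r and Irf8 were the 3 highest and 3 lowest ratios of each list and the 5 genes most like each gene. Genes of the comparison within Siglech-positive cells, cluster leaders and Kit were named after their values were seen. The scripts were tested on simulated data. Alternatives were other count thresholds, clusterings, cell filters and reference groups.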

Additional observations from a re-analysis of the deposited data

Results flagged for a closer look

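The filter on cells removed 1172 barcodes that no comparison above uses. Of these, 13 (1.11%, interval 0.592 to 1.89) had 3 or more of the 7 plasmacytoid genes, below the 3.45% of kept cells, with no test. The 0.256% that a count of 0 allows (3 counts of the total) is passed by any count above 3. These 13 barcodes had a median of 40357 UMIs, against 2951.5 over all removed barcodes, and Siglech was detected in 8 removed barcodes. They were singled out because they carry the same genes in data outside the main measurement.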

How the results depend on the processing

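No paired analysis was possible because there was 1 library, and no replicate could be left out. The share of cells with 3 or more of the 7 genes, 3.45%, was 1.88% when a gene needed 2 or more UMIs and 1.71% when thinned to 5000 UMIs. The share of Siglech-positive cells with Dntt, 28.8%, was 15.8% with 2 or more UMIs and 18.9% when thinned, and that with Il7r, 20.9%, was 13.2% with 2 or more UMIs. Siglech in its leading cluster, 38.8 CPM, was 59.1 CPM with mitochondrial, ribosomal and haemoglobin UMIs left out of the total, 15.9 at resolution 0.4, 46.8 at resolution 1.2, 29.3 with 30 components, 14.3 with all barcodes, 46.4 with the stricter cell filter and 49.1 with doublet calls removed. That cluster held 55.1% to 81.3% of the Siglech-positive cells over the clusterings. The number of genes at least 2-fold lower in cells with 3 or more of the 7 genes, 1180, was 1965 when the cells were chosen after thinning, 1984 with a minimum of 10 UMIs and 1891 against cells with 0 to 2 of the genes, and the number at least 2-fold higher was 1142 to 1634. The cause of these shifts was not tested beyond what each setting changes by construction. The share of Cd7-positive cells with Dntt, 13.3%, was 3.33% with 2 or more UMIs and 8.13% when thinned.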

Other observations

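Itgax, the integrin of dendritic cells, and Klrd1, a receptor of NK cells, were among the 5 genes most like Siglech, Cd7 or both, although neither was on a list of plasmacytoid markers used here. In the T, NK or innate lymphoid-like cells Il7r was at 986 CPM (858 to 1128) in 36 of 42 cells, and none of these 42 cells had 3 or more of the 7 genes, which allows a share of up to 7.14%. In the 21 cells led by immunoglobulin genes, 5 had 3 or more (23.8%, interval 8.22 to 47.2). Cells in the HSC-like cluster, 866 with a median of 8712 UMIs, had none with 3 or more, which allows a share of up to 0.346%.

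In cells with 3 or more of the 7 genes, the receptor genes of myeloid growth factors were also present. Csf1r, the receptor of macrophage colony-stimulating factor, was found in 49.2% (43.1 to 55.4) against 18.5% of cells with none, and Il3ra, a subunit of the interleukin-3 receptor, in 48.9% (42.7 to 55.1) against 35.8%. Csf2rb, the shared subunit of related receptors, was found in 46.2% against 33.0%, at a median depth of 15746.5 against 17311 UMIs. Cd34, a surface protein of progenitors, was in 61.7% (55.6 to 67.6) against 46.6%, and its level was highest in cells with 2 of the genes, at 180 CPM.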
